A study of Mus musculus with 4 samples.

Results

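Insulin-like growth factor (IGF) signaling in dystrophic soleus was read here through 10 genes, taken by symbol from a table of 24054 gene symbols. They are the ligands Igf1 and Igf2, the type 1 receptor Igf1r, the receptor substrate Irs1 and the binding proteins Igfbp2, Igfbp3, Igfbp4, Igfbp5, Igfbp6 and Igfbp7. All 10 were found, and all 10 passed the filter on low counts that left 13652 genes for testing. The soleus, a slow hindlimb muscle, came from female *mdx* mice (C57BL/10ScSn-DMDmdx/J), which lack dystrophin because of a mutation in Dmd that both groups carried. From 8 weeks of age, mice of the mCDC group (2 libraries) had been infused once a month through the femoral vein with mouse cardiosphere-derived cells (mCDCs) of passage 5, all grown from a single heart of a female C57BL/10ScSn/J mouse, and mice of the vehicle group (2 libraries) with culture medium alone. RNA was taken at the 12-month endpoint. The question was whether transcripts of this growth factor system differed between the muscles of treated and control mice.

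IGF1 and IGF2 are small secreted proteins related to proinsulin. They act on muscle through the IGF1 receptor, a tyrosine kinase whose substrates, IRS1 among them, recruit PI3-kinase and so switch on Akt and mTOR, the route best known for fiber growth and for restraining FoxO-driven protein breakdown. In the extracellular space most IGF is held by binding proteins, which lengthen its life, keep it from the receptor or hand it over where proteases cut them. In muscle, IGF1 is known for its part in regeneration and hypertrophy, Igf2 for its rise during myoblast differentiation, and IGFBP5 as the binding protein most closely tied to differentiating myogenic cells. IGFBP6 prefers IGF2, and IGFBP7 is a related protein of low IGF affinity that is abundant around blood vessels.

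The start regions of Igfbp4, Igfbp5, Igfbp6 and Igfbp7 are shown first, since these had the highest levels per length of the binding proteins in soleus, and Igfbp5 had the smallest p of the 10 genes. RefSeq promoter windows on GRCm38.p6, each running from 250 bases before to 50 bases after an annotated start, were found for 10 of the 10 genes, with 14 windows in all because Igf2 and Igfbp2 have several starts. Capitals mark matches on either strand to any of 6 motifs, namely the TATA box TATAAA, the E-boxes CACGTG and CAGCTG, the FoxO core GTAAACA, the GC box GGGCGG and the AP-1 site TGACTCA, none of which contains another.
Igfbp5, chr1:72874816-72875115, minus strand: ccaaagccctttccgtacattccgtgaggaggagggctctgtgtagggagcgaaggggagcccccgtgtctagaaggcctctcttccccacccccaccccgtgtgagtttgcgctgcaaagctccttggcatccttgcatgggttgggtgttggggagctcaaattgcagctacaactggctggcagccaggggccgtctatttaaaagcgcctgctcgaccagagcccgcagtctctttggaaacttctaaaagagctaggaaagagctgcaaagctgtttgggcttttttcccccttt
Igfbp4, chr11:99040994-99041293, plus strand: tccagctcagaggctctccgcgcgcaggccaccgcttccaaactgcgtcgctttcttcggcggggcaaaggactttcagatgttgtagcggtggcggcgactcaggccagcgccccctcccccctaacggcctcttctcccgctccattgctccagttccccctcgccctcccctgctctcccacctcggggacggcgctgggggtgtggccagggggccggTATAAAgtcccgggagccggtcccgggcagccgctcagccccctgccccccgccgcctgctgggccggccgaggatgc
Igfbp6, chr15:102143936-102144235, plus strand: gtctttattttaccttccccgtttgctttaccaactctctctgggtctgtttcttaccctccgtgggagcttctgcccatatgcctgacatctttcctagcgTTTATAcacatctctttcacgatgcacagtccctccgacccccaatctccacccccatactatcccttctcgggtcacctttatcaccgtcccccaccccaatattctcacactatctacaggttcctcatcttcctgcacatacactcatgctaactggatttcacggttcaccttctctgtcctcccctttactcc
Igfbp7, chr5:77407996-77408295, minus strand: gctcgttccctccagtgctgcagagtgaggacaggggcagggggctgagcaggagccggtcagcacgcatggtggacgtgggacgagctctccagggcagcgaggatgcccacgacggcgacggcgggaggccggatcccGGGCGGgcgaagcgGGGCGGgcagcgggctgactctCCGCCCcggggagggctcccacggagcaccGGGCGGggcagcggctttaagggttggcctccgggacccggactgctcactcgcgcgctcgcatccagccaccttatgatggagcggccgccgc
The Igfbp5 window held none of the 6 motifs. That of Igfbp4 held a TATA box whose first base lay at -28 from the start, that of Igfbp6 one on the opposite strand (printed as TTTATA) at -148, and that of Igfbp7 held 4 GC boxes. The start that RefSeq gives for Igfbp6 lies upstream of the start of the gene in the GENCODE annotation. Over the 14 windows of the IGF genes, 6 held a GC box, against 35.7% of the 32851 windows of all genes, and 2 held a TATA box, against 13.6%. The FoxO core was in 0 of the 14 windows and in 3.65% of all windows. CACGTG was in 2 of the 14, those of Irs1 and of an Igfbp2 start, and in 7.15% of all windows. CAGCTG was in that of Igf1 alone and in 16.3% of all windows, and TGACTCA was in the other Igfbp2 window and in 5.20% of all windows. A match describes letters in a window and not a bound site, and the lack of one says only that those letters are not in that window.

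The libraries held 22481391 to 27187425 expected counts. Levels are given as counts scaled to a common library size (CPM, with TMM factors), and, where different genes are compared, as CPM per kilobase of transcript. Skeletal muscle genes dominated every library, with summed levels of 6 fiber markers from 108900 to 123100 CPM, led by Myh7, the slow myosin heavy chain, and Acta1, skeletal actin. A gene was called when its fold change was over 1.5 with an unadjusted p under 0.05, and 95% intervals of the log2 fold change are given beside it. In bulk muscle, fewer cells of a type and less RNA per cell cannot be told apart. An exact permutation of 2 against 2 libraries cannot reach a p below 0.333 for any 1 gene.

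None of the 10 IGF genes was called in either direction, where 4.0% of all tested genes were called, 1.26% higher and 2.74% lower. At an unadjusted p under 0.05 alone, 1 of the 10 passed, Igfbp5, which was lower in mCDC muscles, and 6.94% of all genes did, with 4.09% of all genes passing toward lower levels. No gene of the 10 had an adjusted p under 0.05, with edgeR or with DESeq2, and the same was true of 13652 genes with edgeR, while DESeq2 gave 48 genes. Log2 fold changes were above 0 for 3 of the 10 and below 0 for 7, with a median of -0.13, against -0.0094 over all genes tested. The libraries of the groups did not overlap for 2 of the 10, Igfbp2 (higher) and Igfbp5 (lower), while 38.7% of all tested genes had groups that did not overlap, 19.2% higher and 19.4% lower. None of the 10 was called with DESeq2, which called 2.35% of all genes, nor with RLE size factors (4.0%), with the legacy edgeR form (3.98%), without a filter on low counts (3.71%), with at least 10 counts in every library (3.94%), with the replicate number as a block (3.52%) or with the length and GC trend removed (3.90%). Leaving out a library gave calls for 2 of the 10 without mCDC replicate 1, where 6.73% of all genes were called, and for 2 without vehicle replicate 1, where 7.92% were. It gave 1 without vehicle replicate 2, where 4.10% were called, and 0 without mCDC replicate 2, where 2.49% were.

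**Figure D1:**
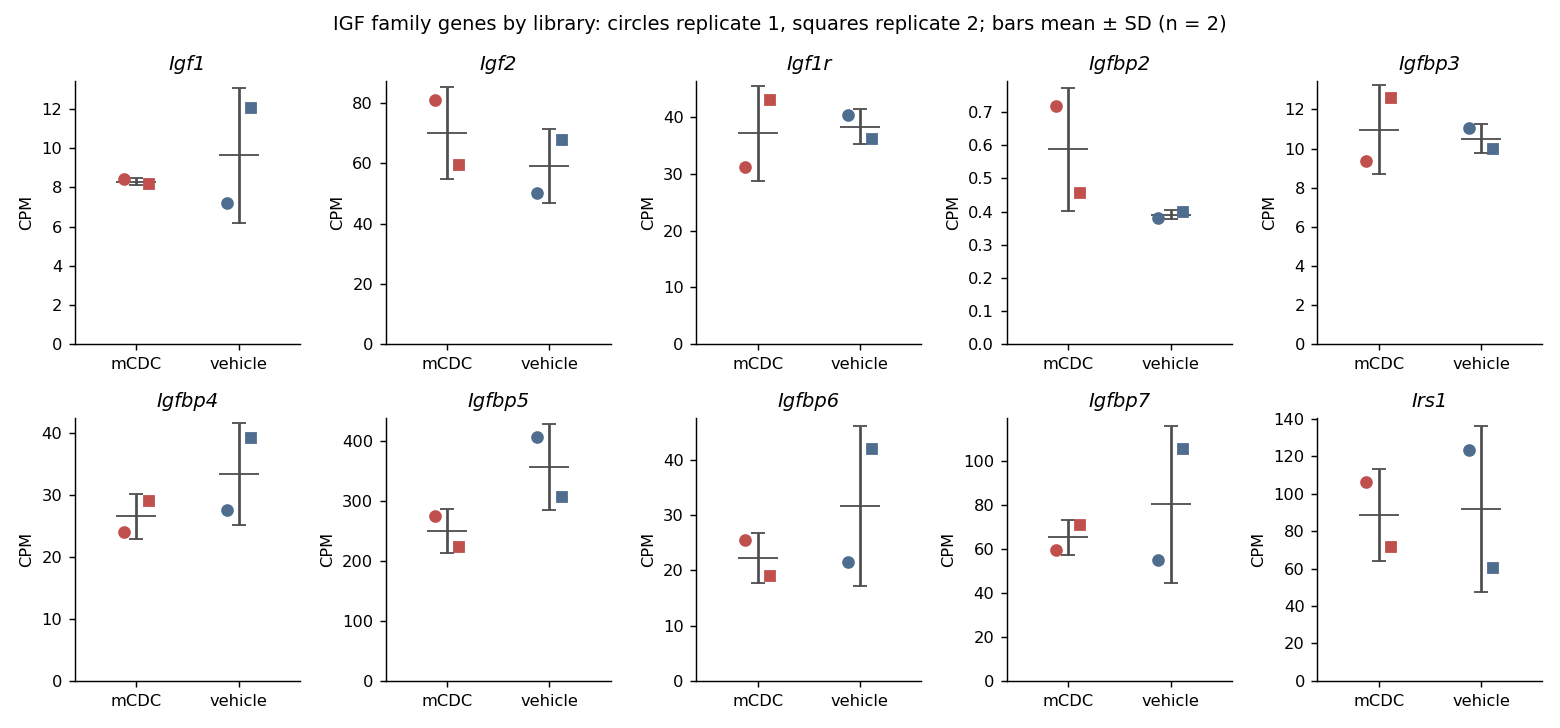
CPM of the 10 IGF genes in each soleus library, with mCDC muscles in red and vehicle muscles in blue, circles for replicate 1, squares for replicate 2, and horizontal lines with bars for the mean and SD of 2 libraries. Igfbp5 lay between 224 and 275 CPM in mCDC muscles and between 307 and 407 in vehicle muscles, while most other genes overlapped.

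Of the ligands, Igf2 was the more abundant. Igf2 (ENSMUSG00000048583.16, chr7:142650766-142666816 on GRCm38, minus strand) had 80.9 CPM in mCDC replicate 1, 59.4 in mCDC replicate 2, 50.3 in vehicle replicate 1 and 67.9 in vehicle replicate 2. The means were 70.1 ± 15.2 CPM in mCDC muscles and 59.1 ± 12.4 in vehicle muscles (SD, n = 2 each), and the groups overlapped, since mCDC replicate 2 lay below vehicle replicate 2. Its log2 fold change was 0.25 (standard error 0.20, interval -0.22 to 0.71, edgeR quasi-likelihood adjusted p = 0.793). Leaving out mCDC replicate 1 brought it to 0.0090 and leaving out vehicle replicate 1 to 0.052, while it was 0.48 without vehicle replicate 2. The annotation places Igf2os on the opposite strand across 7124 bases of Igf2 and Mir483 inside it, and how strand entered the counting is not given in the sources used here. H19, the noncoding RNA transcribed next to Igf2 from the other parental chromosome, was the most abundant gene of the wider IGF lists, with 2511 CPM in mCDC replicate 1, 2145 in mCDC replicate 2, 1973 in vehicle replicate 1 and 2372 in vehicle replicate 2. H19 and Igf2 put the 4 libraries in the same order, highest in mCDC replicate 1 and lowest in vehicle replicate 1.

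Igf1 (ENSMUSG00000020053.18, chr10:87858265-87937042, plus strand) had 8.42 CPM in mCDC replicate 1, 8.18 in mCDC replicate 2, 7.22 in vehicle replicate 1 and 12.1 in vehicle replicate 2. The mCDC muscles lay close together and inside the range of the vehicle muscles, which differed 1.67-fold from each other (means 8.30 ± 0.17 and 9.65 ± 3.44 CPM, SD, n = 2 each). The fitted log2 fold change was -0.22 (standard error 0.26, interval -0.82 to 0.38, edgeR quasi-likelihood adjusted p = 0.857), and without vehicle replicate 2 it was 0.20. Some Igf1 counts were not whole numbers. Per length, Igf2 exceeded Igf1 in every library, by 13.7-fold and 10.4-fold in the mCDC muscles and by 9.95-fold and 8.02-fold in the vehicle muscles. These ratios, a comparison chosen after the data were seen, did not overlap between the groups. The log2 ratio of their group means was 0.42, and it ran from 0.21 without mCDC replicate 1 to 0.61 without mCDC replicate 2.

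The receptor had the log2 fold change nearest to 0 of the 10 genes. Igf1r (ENSMUSG00000005533.10, chr7:67952827-68233668, plus strand) had 31.3 CPM in mCDC replicate 1, 43.0 in mCDC replicate 2, 40.4 in vehicle replicate 1 and 36.1 in vehicle replicate 2. Both vehicle muscles fell between the mCDC muscles, with means of 38.3 ± 3.03 CPM in vehicle and 37.2 ± 8.34 CPM in mCDC muscles (SD, n = 2 each). On the log2 scale the difference was -0.04 (standard error 0.18), and its interval of -0.46 to 0.38 lay inside a 1.5-fold change in either direction, the only other gene for which it did so being Igfbp3. The sign of the Igf1r change turned when mCDC replicate 1 or vehicle replicate 1 was left out, at 0.17 and 0.043.

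Irs1, the docking protein that passes the signal to PI3-kinase, varied more within the groups than between them. Irs1 (ENSMUSG00000055980.2, chr1:82233101-82291416, minus strand) had 106 CPM in mCDC replicate 1, 71.4 in mCDC replicate 2, 123 in vehicle replicate 1 and 60.5 in vehicle replicate 2. Each group held 1 high and 1 low muscle, the vehicle muscles differing 2.04-fold (91.8 ± 44.4 CPM) and the mCDC muscles 1.49-fold (88.8 ± 24.6 CPM, SD, n = 2 each). The log2 fold change was -0.05 (standard error 0.32, interval -0.78 to 0.68, edgeR quasi-likelihood adjusted p = 0.982). Without vehicle replicate 1 it was 0.56, and without vehicle replicate 2 it was -0.47. With the replicate number as a block it was 0.011, with a standard error of 0.15.

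Igfbp5, the binding protein of myogenic differentiation (ENSMUSG00000026185.8, chr1:72857932-72874884, minus strand) had the most counts of the 10 genes, ranking 414 by CPM among the 13652 tested. It had 275 CPM in mCDC replicate 1, 224 in mCDC replicate 2, 407 in vehicle replicate 1 and 307 in vehicle replicate 2, on 4898 to 10676 counts per library. Both mCDC muscles lay below both vehicle muscles, with means of 250 ± 36.5 and 357 ± 71.2 CPM (SD, n = 2 each). The level was 1.43-fold lower in mCDC muscles, or -0.52 on the log2 scale (standard error 0.18, interval -0.93 to -0.10), and edgeR's quasi-likelihood test gave an unadjusted p of 0.0206 and an adjusted p of 0.685. By that p, 407 genes of the table ranked ahead of it. With DESeq2 the unadjusted p was 0.0108 and the adjusted p 0.719. Leaving out a library moved the log2 fold change between -0.71 and -0.29. The gene was called without mCDC replicate 1, at -0.67, and without vehicle replicate 2, at -0.71, and had an unadjusted p over 0.05 without vehicle replicate 1, at -0.29, without mCDC replicate 2, at -0.37, or with the trend in transcript length and GC content removed, at -0.37.

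Igfbp2 lies next to Igfbp5, with 5457 bases between their annotated ends and transcription running toward each other, and is known as a binding protein of the fetal and growing animal. Igfbp2 (ENSMUSG00000039323.18, chr1:72824503-72852474, plus strand) was nearly silent, with 19 counts in mCDC replicate 1, 10 in mCDC replicate 2, 10 in vehicle replicate 1 and 11 in vehicle replicate 2. On the CPM scale both mCDC muscles, at 0.720 and 0.457, lay above both vehicle muscles, at 0.382 and 0.400. The log2 fold change of 0.60 had an interval from -0.60 to 1.81 (edgeR quasi-likelihood adjusted p = 0.808), so that no difference was detectable at this depth, and it ran from 0.22 without mCDC replicate 1 to 0.87 without mCDC replicate 2.

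Igfbp6, which binds IGF2 in preference to IGF1, had the widest range of the 10 genes, 2.21-fold over the libraries. Igfbp6 (ENSMUSG00000023046.6, chr15:102144362-102149511, plus strand) had 25.5 CPM in mCDC replicate 1, 19 in mCDC replicate 2, 21.4 in vehicle replicate 1 and 41.9 in vehicle replicate 2. Vehicle replicate 2 stood above the other muscles, and the groups, at 22.2 ± 4.56 CPM with mCDCs and 31.7 ± 14.5 with vehicle (SD, n = 2 each), overlapped. Its log2 fold change was -0.51 (standard error 0.30, interval -1.20 to 0.18, edgeR quasi-likelihood adjusted p = 0.747). Without vehicle replicate 2 it was 0.051, while Igfbp6 was called lower without vehicle replicate 1, at -0.91, or without mCDC replicate 1, at -0.74.

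Igfbp7 (ENSMUSG00000036256.13, chr5:77349240-77408041, minus strand) had 59.6 CPM in mCDC replicate 1, 70.9 in mCDC replicate 2, 55.0 in vehicle replicate 1 and 105 in vehicle replicate 2. The vehicle muscles (80.2 ± 35.7 CPM) bracketed the mCDC muscles (65.2 ± 7.99 CPM, SD, n = 2 each). The fitted log2 fold change was -0.30 (standard error 0.27, interval -0.93 to 0.33, edgeR quasi-likelihood adjusted p = 0.817). It was 0.25 without vehicle replicate 2, and Igfbp7 was called lower without vehicle replicate 1, at -0.69. Its 3′ end shares 85 bases with the 3′ end of Polr2b on the opposite strand, and some of its counts were not whole numbers.

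Igfbp4, an inhibitory binding protein that PAPP-A cleaves, was also highest in vehicle replicate 2. Igfbp4 (ENSMUSG00000017493.12, chr11:99041244-99054392, plus strand) had 24.0 CPM in mCDC replicate 1, 29.0 in mCDC replicate 2, 27.5 in vehicle replicate 1 and 39.1 in vehicle replicate 2. The groups (26.5 ± 3.56 CPM with mCDCs, 33.3 ± 8.18 with vehicle, SD, n = 2 each) overlapped by the narrow margin between mCDC replicate 2 and vehicle replicate 1. On the log2 scale the difference was -0.33 (standard error 0.20, interval -0.79 to 0.13, edgeR quasi-likelihood adjusted p = 0.758), and without vehicle replicate 2 it was -0.057.

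Igfbp3, the main carrier of IGF in the circulation, was low in soleus and had the smallest log2 fold change among the binding proteins. Igfbp3 (ENSMUSG00000020427.11, chr11:7206086-7213923, minus strand) had 9.35 CPM in mCDC replicate 1, 12.6 in mCDC replicate 2, 11.0 in vehicle replicate 1 and 9.97 in vehicle replicate 2. Both vehicle muscles (10.5 ± 0.749 CPM) fell between the mCDC muscles (11.0 ± 2.27 CPM, SD, n = 2 each), and the log2 fold change was 0.06 (standard error 0.21, interval -0.42 to 0.54).

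**Figure D2:**
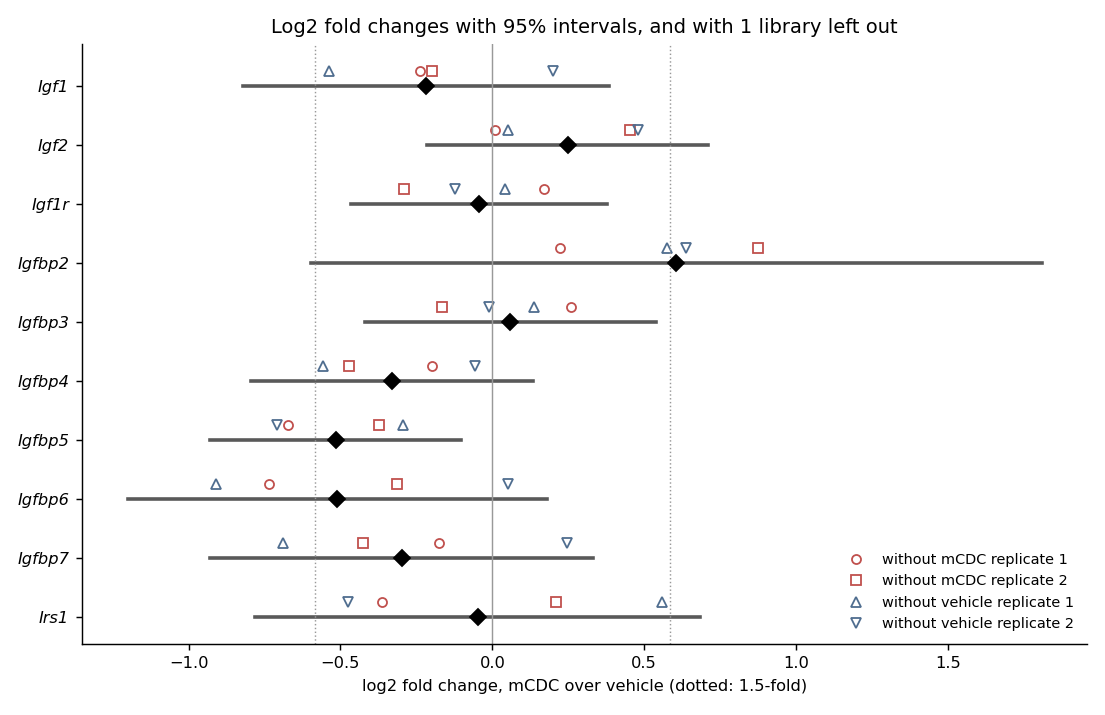
Log2 fold change of mCDC over vehicle muscles for the 10 IGF genes, as black diamonds with 95% intervals, and open symbols for the same value with 1 library left out; dotted lines mark a 1.5-fold change. Of the 10 intervals only that of Igfbp5, from -0.93 to -0.10, does not include 0, and the open symbols of Igf1, Igf1r, Igfbp3, Igfbp6, Igfbp7 and Irs1 fall on both sides of 0.

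Per length, with the median annotated transcript as the length, the mean over all 4 libraries was highest for Igf2, at 67.4 CPM per kb. Igfbp7 followed at 62.8, Igfbp5 at 59.0, Igfbp4 at 39.2, Igfbp6 at 24.2 and Igf1r at 18.9 CPM per kb. Below these stood Irs1 at 9.88, Igf1 at 6.56, Igfbp3 at 5.20 and Igfbp2 at 0.494 CPM per kb. Neighbors in this order overlapped over the libraries at every step but those from Igf1r to Irs1 and from Igfbp3 to Igfbp2. The order rests on the length used, because Igf1, Igf2, Igf1r and Igfbp4 have annotated transcripts of very unequal length. With the longest transcript, Igfbp7 led at 60.6 CPM per kb, followed by Igfbp5 at 50.5 and Igfbp6 at 24.2, and Igf2 came after these at 13.7. Which transcripts were present in these muscles was not measured by the table.

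Igfbp5 and Igfbp7 made up most of the binding protein transcript in each muscle, with the median transcript as the length. Igfbp5 took 32.5% and 26.2% of the summed CPM per kb of the 6 binding proteins in the mCDC muscles, against 42.2% in vehicle replicate 1 and 24.4% in vehicle replicate 2. Igfbp7 took 31.3% and 36.8% in the mCDC muscles and 25.3% and 37.2% in the vehicle muscles, and the share of Igfbp4 ran from 19.1% to 22.8% over all 4. With the longest transcript, the share of Igfbp4 was 4.85% to 5.99%, below that of Igfbp6 at 13.3% to 19.7%, and Igfbp5 and Igfbp7 still held the largest shares. The shares of Igfbp3, Igfbp4, Igfbp5, Igfbp6 and Igfbp7 overlapped between the groups. That of Igfbp2, at most 0.441% and based on 10 to 19 counts, did not. Within the vehicle group, Igfbp5 led in replicate 1 and Igfbp7 in replicate 2.

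The sum over the 6 binding proteins was 165 CPM per kb in mCDC replicate 1, 166 in mCDC replicate 2, 188 in vehicle replicate 1 and 245 in vehicle replicate 2. The mCDC muscles lay together, and below both vehicle muscles. The summed ligands Igf1 and Igf2 overlapped, at 90.6 and 68.0 CPM per kb in the mCDC muscles and 57.8 and 79.7 in the vehicle muscles. Divided by these ligands, the binding proteins stood at 1.82 and 2.45 in the mCDC muscles and at 3.25 and 3.07 in the vehicle muscles, without overlap. The ratio and the binding protein sum share the same numerator, and 38.7% of all tested genes had groups that did not overlap. With the longest transcript as the length, these ratios were 7.05 and 9.21 against 12.4 and 11.9. The sums and the ratio were chosen after the data were seen and have no test. With each library left out, the log2 ratio of the group means ran from -0.80 to -0.37 for the binding protein to ligand ratio. For the binding protein sum it ran from -0.57 to -0.18, and was nearest to 0 without vehicle replicate 2.

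**Figure D3:**
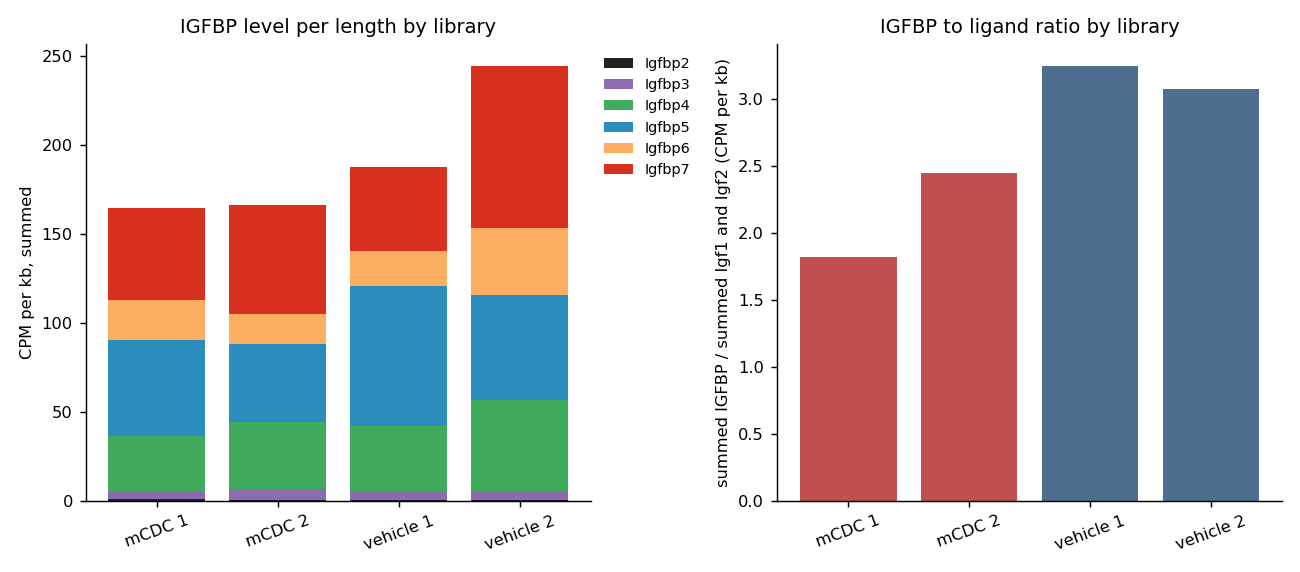
Left, CPM per kb of the 6 binding proteins stacked by library; right, their sum divided by the sum of Igf1 and Igf2 in the same library, with mCDC muscles in red and vehicle muscles in blue. The stacks reach 165 and 166 in the mCDC muscles and 188 and 245 in the vehicle muscles, and the ratio is lower in both mCDC muscles.

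Igf1, Igfbp4, Igfbp6 and Igfbp7 were each highest in vehicle replicate 2, a library in which 29.4% of all tested genes had their highest level. Igf2 and Igfbp2 were highest in mCDC replicate 1, as were 17.1% of all genes, Igf1r and Igfbp3 in mCDC replicate 2, as were 28.1%, and Igfbp5 and Irs1 in vehicle replicate 1, as were 25.4%. Markers of fibroblasts and of endothelium were likewise highest in vehicle replicate 2. Summed over 8 fibroblast markers, led by Dcn and Col3a1, the level was 340 to 381 CPM in mCDC muscles, 350 CPM in vehicle replicate 1 and 606 CPM in vehicle replicate 2. All 8 had log2 fold changes below 0, and Pdgfra and Lum were called lower. Summed over 7 endothelial markers, led by Cdh5 and Egfl7, the level was 132 to 157 CPM in mCDC muscles, 127 CPM in vehicle replicate 1 and 280 CPM in vehicle replicate 2, with 7 of 7 below 0 and Flt1 called lower, although its groups overlapped. No marker of either list was at 0. The part of these cells in the levels of Igf1, Igfbp4, Igfbp6 and Igfbp7 was not tested.

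**Figure D4:**
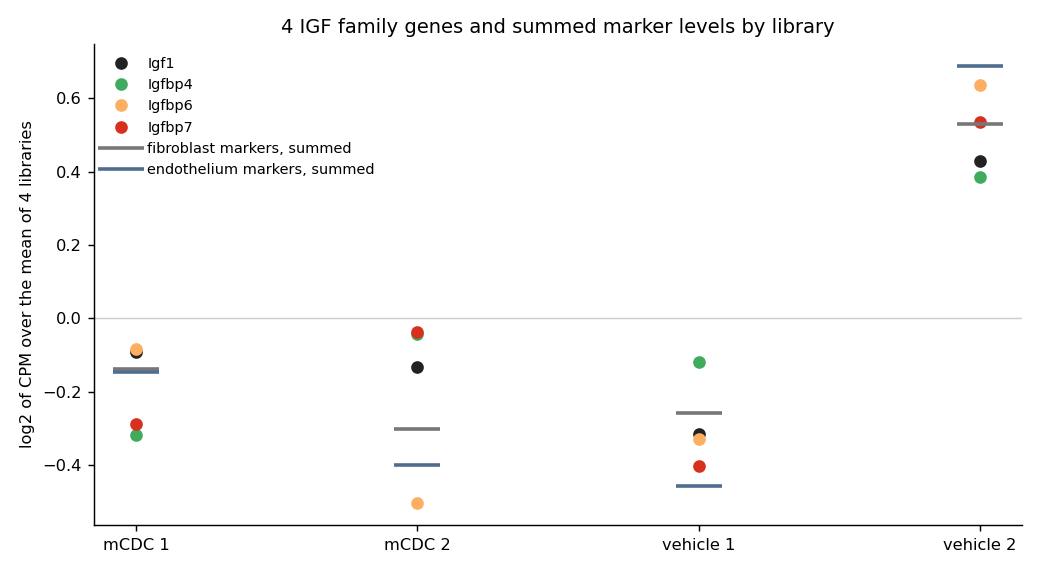
Log2 of CPM over the mean of all 4 libraries for Igf1, Igfbp4, Igfbp6 and Igfbp7 (points) and for the summed fibroblast and endothelial markers (bars), by library. All 6 values lie above 0 in vehicle replicate 2 and below 0 in the other libraries. The genes and marker lists drawn are ones highest in vehicle replicate 2, so their shared peak follows from that choice and is no test of a link. Among the lists not drawn, the Schwann cell and erythroid sums were also highest there, and the adipocyte and tenocyte sums were not.

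Of the other marker lists, the Schwann cell, adipocyte and erythroid markers were also below 0 in 4 of 4 genes each, with no gene called. Their summed levels were 29.7 and 34.3 CPM in the mCDC muscles and 30.6 and 50.2 in the vehicle muscles for Schwann cells, 9.01 and 9.27 against 18.0 and 3.82 for adipocytes, and 255 and 265 against 216 and 422 for erythroid genes. Among 6 macrophage markers, of which 4 were below 0, Csf1r was called lower and Cd68 higher, the latter on mCDC replicate 2 at 15.4 CPM, while mCDC replicate 1, at 4.13 CPM, lay below vehicle replicate 2, at 4.15 CPM. Cspg4 was called higher and Rgs5 lower among 6 pericyte and smooth muscle markers, of which 4 were above 0 and 2 below. Their summed levels were 256 and 294 CPM in the mCDC muscles and 208 and 265 in the vehicle muscles. Pax7, the satellite cell factor, was called higher among 3 tested satellite cell markers. The median log2 fold change of these 3 was 0.034, with 2 above 0, and Vcam1, the most abundant, was at -0.11. Among 4 tenocyte markers Scx was called higher and Tnmd and Comp lower. No muscle fiber, cardiomyocyte or hepatocyte marker was called. Of the liver genes, Apoa1 and Ttr were at 0 in all 4 libraries and Alb had at most 2 counts. Serpina1a, the most abundant of that list, had 4.39 to 5.26 CPM.

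Beyond the 10 genes, 72 genes of the IGF system were listed in 5 groups, and 64 were tested, the counts of Igfbp1, Igfbpl1, Irs3, Irs4, Insrr, Igf2bp1, Pappa2 and Grb7 being too low. Of these 2 were called higher, Igf2bp2 and Stc2, and 2 lower, Ddit4 and Foxo3, or 6.25% against the 4.0% of all genes. The lists were chosen with earlier results of these data known. This share and the counts that follow are therefore no test of the lists against all genes. The median log2 fold change of the 64 was -0.11, with 26 above 0 and 38 below. An unadjusted p under 0.05 was reached by 9 of the 64, 2 higher and 7 lower, where 6.94% of all tested genes reached it and 4.09% toward lower levels, and the smallest adjusted p was 0.462 with edgeR's quasi-likelihood test.

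Ddit4, also called REDD1, restrains mTOR and is known to be induced by glucocorticoids and energy stress. Ddit4 had 6.33 CPM in mCDC replicate 1, 6.08 in mCDC replicate 2, 27.8 in vehicle replicate 1 and 12.8 in vehicle replicate 2. Both vehicle muscles lay above both mCDC muscles, though they differed widely from each other. The log2 fold change was -1.71 (standard error 0.34, edgeR quasi-likelihood adjusted p = 0.462 and 5.6e-04 with DESeq2), and it stayed called with any library left out, from -2.16 to -1.04.

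Foxo3, a transcription factor that Akt holds out of the nucleus, had 3.94 CPM in mCDC replicate 1, 3.34 in mCDC replicate 2, 11.5 in vehicle replicate 1 and 4.51 in vehicle replicate 2. The second vehicle muscle lay close to the mCDC muscles. Its log2 fold change was -1.13 (standard error 0.41, edgeR quasi-likelihood adjusted p = 0.695), and without vehicle replicate 1 it was -0.30 and not called. Of the 33 genes of the PI3K, Akt, mTOR and FoxO group, 14 were above 0 and 19 below, and its most abundant genes, Rps6 and Akt2, had log2 fold changes of 0.21 and 0.14.

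Igf2bp2, an RNA-binding protein named for its binding to Igf2 mRNA, had 4.62 CPM in mCDC replicate 1, 9.05 in mCDC replicate 2, 2.18 in vehicle replicate 1 and 3.20 in vehicle replicate 2. Both mCDC muscles lay above both vehicle muscles. The fitted log2 fold change was 1.33 (standard error 0.36, edgeR quasi-likelihood adjusted p = 0.619 and 0.177 with DESeq2), and without mCDC replicate 2 it was 0.78 and not called. Of the other 6 tested genes in that group, which holds further receptors, substrates and binding partners, none was called. Igf2r, which clears IGF2, had 200 CPM in mCDC replicate 1, 198 in mCDC replicate 2, 240 in vehicle replicate 1 and 177 in vehicle replicate 2, a log2 fold change of -0.07. Irs2, named after its values were seen as the counterpart of Irs1, had 9.61 and 9.41 CPM in the mCDC muscles and 33.8 and 4.27 CPM in vehicle replicates 1 and 2, so that the mCDC muscles lay between the vehicle muscles. Irs2 was called higher without vehicle replicate 1 and lower without vehicle replicate 2, at 1.16 and -1.83. Igfbp1, Igfbpl1 and Irs4 were at 0 in all 4 libraries.

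Stc2, stanniocalcin-2, an inhibitor of the PAPP-A proteases that cut IGFBP4 and IGFBP5, had 5.95 CPM in mCDC replicate 1, 6.17 in mCDC replicate 2, 4.20 in vehicle replicate 1 and 3.38 in vehicle replicate 2. The groups did not overlap. On the log2 scale the difference was 0.68 (standard error 0.23, edgeR quasi-likelihood adjusted p = 0.684), and the gene was not called without vehicle replicate 2, at 0.53, nor without either mCDC library, at 0.70 and 0.65, where its fold change was over 1.5 but its unadjusted p was over 0.05. The protease Pappa itself had at most 0.543 CPM, and Htra1, which also cuts binding proteins, had a log2 fold change of -0.40 without being called. None of the 6 growth hormone axis genes was called, with 5 of 6 below 0 and the receptor Ghr at -0.38 and Stat5b at -0.21, and none of the 13 tested receptor adaptors and brakes, of which the most abundant, Nedd4 and Inppl1, had -0.23 and -0.02.

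**Figure D5:**
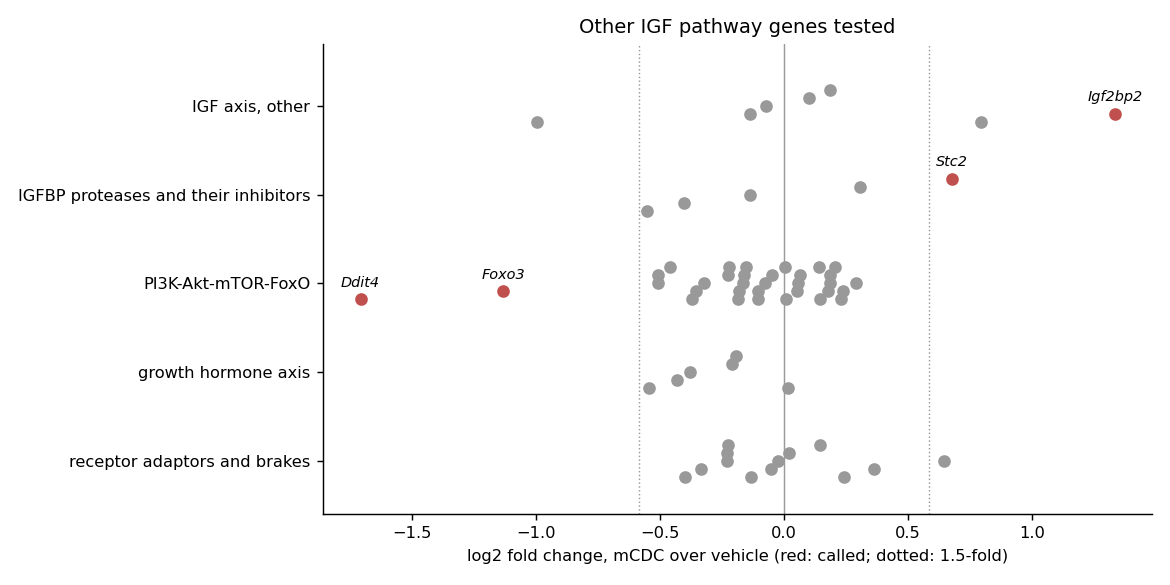
Log2 fold change of mCDC over vehicle muscles for the 64 tested genes of 5 IGF pathway groups, 1 point per gene, with called genes in red and dotted lines at a 1.5-fold change. Igf2bp2 and Stc2 are called on the right and Ddit4 and Foxo3 on the left.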

How the data were processed

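RNA of *mdx* soleus was sequenced as single-end reads in 4 libraries, 2 per group, and each library is called a muscle in this report. The authors mapped the reads to a UCSC transcript set with Bowtie2 and deposited RSEM expected counts per gene symbol, not normalized; the submitters' processing notes name Bowtie2 2.1.0, RSEM 1.2.15 and mm10. The paper and the sample records name different library kits, and 15.7% of deposited values were not whole. Groups and replicate numbers came from the sample titles, and the labels do not say that the samples of a group came from separate animals, in which case p-values measure only the spread between these samples, which may be technical.

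Expected counts were rounded, filtered with filterByExpr, scaled by TMM and tested over the whole table with edgeR 4.0.16 (quasi-likelihood F-test, legacy = FALSE) in R 4.3.3, with Benjamini-Hochberg adjustment over 13652 genes. Standard errors are the log2 fold change over the square root of F, and intervals are 95% intervals from the same test. Totals of 22481391 to 27187425 expected counts per library gave every one of the 10 genes but Igfbp2, at 10 to 19 counts, more than 100 counts in each library. Alternatives were DESeq2 1.42.0, the legacy form, RLE factors, other filters, a replicate block, correction for transcript length and GC content (mgcv 1.9.3; both known for 99.1% of tested genes) and leaving out each library. The procedure was also run on simulated counts whose spread was fitted to these same libraries, so that run does not check the spread. The changes planted in it were larger than that of any of the 10 genes, and its outcome is not used here.

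Positions, overlaps and transcript lengths came from GENCODE M21 (GRCm38), which named 22750 of 24054 symbols directly and 916 by an older name, with 388 unmatched; promoter windows came from RefSeq (GRCm38.p6). The 10 genes, the pathway lists and the 12 marker lists were chosen with earlier results of these data known. Named beyond the 10 were called pathway genes, the most abundant 2 of each pathway list, and marker genes that were called or led their list; Irs2, Pappa and genes too low to test were added after their values were seen. Exercise, force, histology and antibody data were not used here.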

Additional observations from a re-analysis of the deposited data

How the results depend on the processing

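With 2 libraries per group, 1 library could carry a result. With each library left out, 0 to 2 of the 10 IGF genes were called, 3 to 7 of the other pathway genes, 112 to 397 genes higher and 236 to 834 lower. The 2 were Igfbp5 and Igfbp6 without mCDC replicate 1 and Igfbp6 and Igfbp7 without vehicle replicate 1, and Igfbp5 alone was called without vehicle replicate 2. Under the other 7 settings none of the 10 was called and the same 4 pathway genes were. A lone library in a group was assumed to vary like the other group.

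Signs turned for 6 genes. With each library left out, the log2 fold change ran from -0.54 to 0.20 for Igf1, -0.29 to 0.17 for Igf1r, -0.17 to 0.26 for Igfbp3, -0.91 to 0.051 for Igfbp6, -0.69 to 0.25 for Igfbp7 and -0.47 to 0.56 for Irs1. The upper end came without vehicle replicate 2 for Igf1, Igfbp6 and Igfbp7, without vehicle replicate 1 for Irs1 and without mCDC replicate 1 for Igf1r and Igfbp3. With the length and GC trend removed, Igf1r was at 0.036 and Irs1 at 0.12. Igf2, Igfbp2, Igfbp4 and Igfbp5 kept their sign under all 11 settings, but with each library left out Igf2 ran from 0.0090 to 0.48, Igfbp2 from 0.22 to 0.87 and Igfbp4 from -0.56 to -0.057. The cause of these changes was not tested.

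The replicate number was shared by the groups, but same-numbered muscles did not deviate together (r = -0.039 over tested genes). With it as a block, 172 genes were called higher and 308 lower, against 172 and 374 without it, and Irs1 was at 0.011; no call changed among the 10 IGF genes or the other pathway genes.

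With the longest transcript as the length, the mean levels were 1.27 CPM per kb for Igf1, 13.7 for Igf2, 3.31 for Igf1r, 4.43 for Igfbp3 and 7.80 for Igfbp4, by construction. With each library left out, the mCDC minus vehicle difference in share, in percentage points, ran from -12.9 to 4.99 for Igfbp5, -3.17 to 8.75 for Igfbp7, -3.31 to 1.82 for Igfbp6, -0.970 to 2.79 for Igfbp4, 0.345 to 1.25 for Igfbp3 and 0.0921 to 0.256 for Igfbp2.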
